A study of Mus musculus with 4 samples.

Results

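Later B precursor nuclei were taken from mouse bone marrow as nuclei that carried RNA of the B lineage factors Ebf1 and Pax5 together with RNA of Gm32569, Cacna1e or Ankrd33b. The rule required at least 1 unique molecular identifier (UMI) of Ebf1 and Pax5 summed, at least 1 UMI of Gm32569, Cacna1e and Ankrd33b summed, more UMIs of these 3 genes than of Gfra2, Cplx2 and Cecr2, and at most 1 UMI of Ms4a1 and Bank1. It was met by 126 of 13619 kept nuclei, 98 of 5905 in library 1 and 28 of 7714 in library 2. A nucleus was kept with at least 200 genes and with 1000 to 50000 counts in accessible peaks.

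The nuclei came from lineage-negative, cKit-positive hematopoietic stem and progenitor cells (HSPCs) of male C57BL/6 mice aged 8 weeks in the study's methods. Periodontitis was induced by tying silk around the second molars of both jaws on both sides for 14 days (Lig), and control mice (Ctrl) stayed unligated. RNA and ATAC of Ctrl and of Lig were 4 samples, 1 in each group, so there were no replicates, and the bone marrow of 5 mice of a group had been pooled before the sort. The matrix held nuclei under barcode suffixes 1 and 2, named library 1 and library 2 here, and because no label ties a suffix to Ctrl or Lig the libraries belong to no group and nothing was attributed to ligature. The lineage cocktail held an antibody to B220, a form of CD45 on the surface of B cells, and this sort would have removed cells with high B220.

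The B lineage begins when Ebf1 and Pax5 commit a progenitor, after which pro-B cells join gene segments of the immunoglobulin heavy chain locus (Igh) with the recombinase encoded by Rag1 and Rag2. A heavy chain that pairs with the surrogate light chain, made of the products of Igll1 and the Vpreb genes, forms the pre-B receptor. Signals from this receptor and from interleukin 7 drive divisions, and after these stop the kappa light chain locus (Igk) is opened and rearranged. Gm32569 is a predicted gene, Cacna1e encodes a subunit of a voltage-gated calcium channel, and Ankrd33b an ankyrin repeat protein.

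The member nuclei were shallow. Their median was 879 UMIs in library 1 and 916 in library 2, against 1655 and 1518 in the remaining kept nuclei, and together they gave 107308 and 37142 UMIs. Levels are UMIs of a gene scaled to the summed UMIs of all genes (CPM), so that 1 UMI equals 9.32 CPM in the member nuclei of library 1 and 26.9 CPM in those of library 2. Where values come in pairs, library 1 stands first. A gene without a UMI in the members is given with the level that 3 UMIs would have. Transcripts at a ribosomal RNA locus took 39.3% and 53.2% of the members' UMIs and 43.1% and 53.2% of those of the remaining nuclei. Of the barcode sequences, 146 occurred under both suffixes, 72 of them among kept nuclei and 3 among the members, and no sequence was a member under both. No doublet caller was run. Values in parentheses are 95% intervals, which reflect counting error alone.

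The share of kept nuclei that met the rule was 1.66% (1.35 to 2.02) in library 1 and 0.363% (0.241 to 0.524) in library 2. Nuclei with Ebf1 or Pax5 made up 26.9% and 10.3% of kept nuclei, and the rule took 6.17% (5.04 to 7.47) and 3.54% (2.36 to 5.08) of them. The closest counterparts of the members, called Gfra2/Cplx2/Cecr2 nuclei below, met the mirrored rule and numbered 903 and 346. Within the sum of both kinds the members were 9.79% (8.02 to 11.8) and 7.49% (5.03 to 10.6), values with overlapping intervals.

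The rule was also met by nuclei that carried RNA of another lineage. Of nuclei with at least 3 UMIs of the granule genes Elane, Mpo, Ctsg and Prtn3, 8 of 2028 and 8 of 3593 were members, which is 0.394% (0.170 to 0.776) and 0.223% (0.0962 to 0.438). Among kept nuclei with fewer than 3 such UMIs the share was 2.32% (1.87 to 2.85) and 0.485% (0.297 to 0.749). In library 2 the intervals of these separate groups overlapped, so the share of members there is not distinguished from background. The median depth of these granule-marked nuclei was 1928.5 and 1697 UMIs. Among nuclei with at least 2 UMIs of the erythroid genes Car1, Ank1, Klf1 and Gata1, 1 of 68 and 0 of 20 (0 to 16.8%) were members. The 16 granule-marked members were 8.16% and 28.6% of the members. Granule-marked nuclei were 34.3% and 46.6% of kept nuclei and 10.6% and 22.5% of the Gfra2/Cplx2/Cecr2 nuclei. The pre-B receptor, cell division and transitional and mature B lists are given also without the granule-marked members.

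Few UMIs separated the members from nuclei just outside the rule. A single UMI of Gm32569, Cacna1e and Ankrd33b carried 48 of 98 members in library 1 and 20 of 28 in library 2. The lead over Gfra2, Cplx2 and Cecr2 was 1 UMI in 63 and 21 members, while 72 and 26 members had no UMI of these 3 genes. Just outside, 59 and 18 nuclei had equal sums, 46 and 8 had the second sum 1 UMI ahead, and 3 and 1 reached 2 UMIs of Ms4a1 and Bank1. Cacna1e was found in 53 and 16 members, Ankrd33b in 46 and 9, Gm32569 in 25 and 6, and all 3 genes together in 4 and 0. The median of Ebf1 and Pax5 summed was 5 UMIs in library 1 and 3 in library 2.

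The markers given for these nuclei beside the genes of the rule were Igll1 and Lef1, and both stood far above the remaining nuclei. They were given with earlier results of these data known, so their height is a description. Nuclei with Ebf1 or Pax5 were 26.9% and 10.3% of kept nuclei, so most remaining nuclei lacked B lineage RNA that the rule required. Igll1, which encodes the lambda5 part of the surrogate light chain, stood at 270.3 CPM (181 to 388, 29 UMIs) and 188 CPM (75.8 to 388, 7 UMIs), against 39.4 and 9.2 CPM in all other kept nuclei. Its ratio to the Gfra2/Cplx2/Cecr2 nuclei, with 155 and 103 CPM, was 1.75 (1.15 to 2.57) and 1.82 (0.70 to 4.01). Lef1, a transcription factor of the T cell factor family that early B cells use, stood at 829 CPM (666 to 1021, 89 UMIs) and 296 CPM (148 to 529.9, 11 UMIs), against 106 and 18.2 CPM in the remaining nuclei. For Lef1 the ratio to the Gfra2/Cplx2/Cecr2 nuclei was 1.6 (1.27 to 2.0) and 1.31 (0.638 to 2.43). Over all members a level above the Gfra2/Cplx2/Cecr2 nuclei thus had intervals over 1 in library 1 alone. Without granule-marked nuclei the ratios were 1.91 (1.24 to 2.84) and 2.95 (1.02 to 6.97) for Igll1 and 1.79 (1.41 to 2.24) and 2.36 (1.14 to 4.42) for Lef1, with intervals over 1 in both libraries. This choice was made after seeing the data. It left 90 and 20 members against Gfra2/Cplx2/Cecr2 nuclei without the same mark, and depth was not matched. Both kinds of nuclei were also limited to the middle range of the members' depth in their library (683.25 to 1221.25 and 691.5 to 1619.25 UMIs; like depth below). This left 48 and 14 members with a median of 879 and 916 UMIs and 216 and 197 Gfra2/Cplx2/Cecr2 nuclei with 888.5 and 1164, so that depth was matched less closely in library 2. At like depth the ratios of Igll1 were 1.8 (0.964 to 3.21) and 1.62 (0.316 to 5.2), intervals that hold 1. Of the markers of the light chain stage, Igkc and Il2ra were near 0, each with 1 UMI and 0 UMIs. Lambda light chain genes had 4 UMIs and 0 UMIs. In library 1 this was 37.3 CPM (10.2 to 95.4), against 6.75 CPM (3.37 to 12.1) in the Gfra2/Cplx2/Cecr2 nuclei, with overlapping intervals. On these few UMIs the word later in the name was not borne out by RNA of that stage. The rule itself set Cacna1e to 867 and 646 CPM, Ankrd33b to 559 and 242 CPM and Gm32569 to 326 and 188 CPM.

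Detection per nucleus was compared after each nucleus was thinned to 500 UMIs, which left out 7 members of library 1. Igll1 was then found in 13.2% and 10.7% of members, in 8.83% and 5.51% of Gfra2/Cplx2/Cecr2 nuclei and in 0.994% and 0.307% of granule-marked nuclei. Unthinned, Igll1 was found in 21.4% and 17.9% of members and in 23.4% and 13.9% of Gfra2/Cplx2/Cecr2 nuclei. Lef1 was found after thinning in 30.8% and 21.4% of members, in 23.1% and 12.8% of Gfra2/Cplx2/Cecr2 nuclei and in 1.44% and 0.446% of granule-marked nuclei. Members lay above the granule-marked nuclei beyond counting error in both libraries, while their intervals overlapped those of the Gfra2/Cplx2/Cecr2 nuclei.

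**Figure D1:**
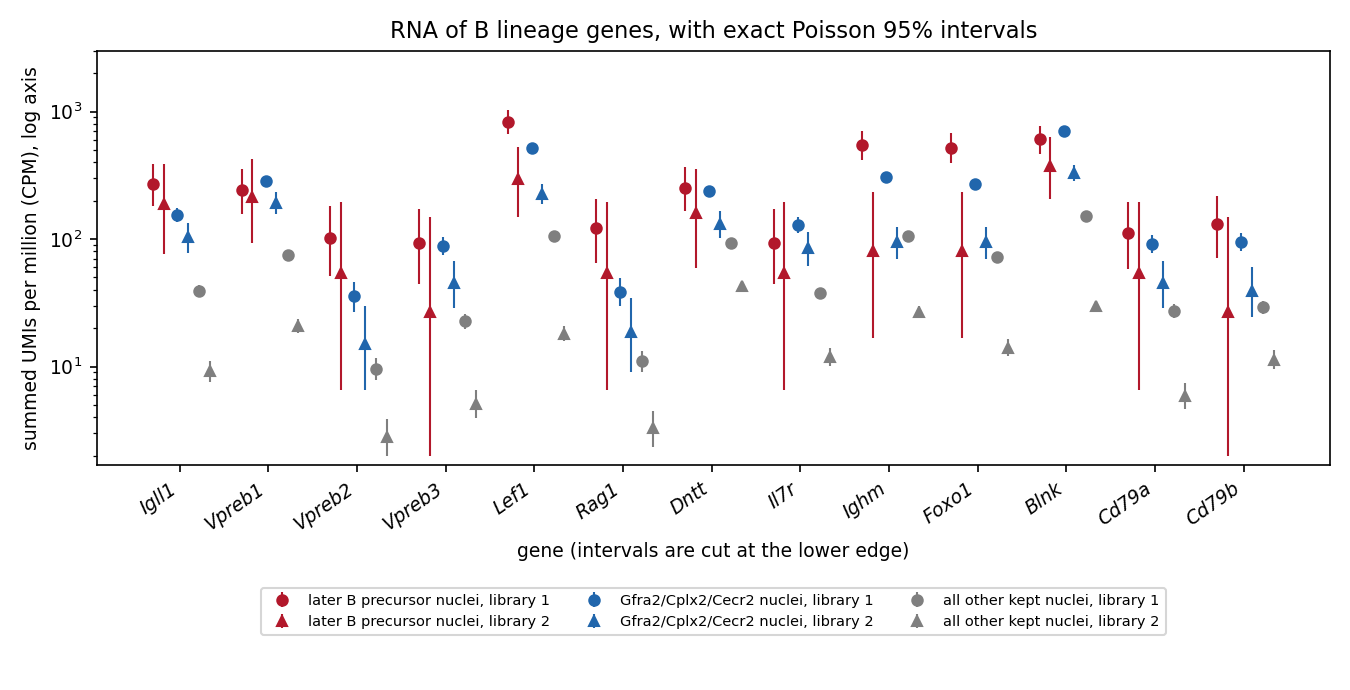
Summed level in CPM (log axis) of 13 B lineage genes in later B precursor nuclei, Gfra2/Cplx2/Cecr2 nuclei and all other kept nuclei of each library, with exact Poisson 95% intervals. Lef1 stands at 829 and 296 CPM in later B precursor nuclei against 106 and 18.2 CPM in other kept nuclei, and the intervals of library 2 are wide.

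Across all genes whose mean reached 20 CPM, 362 of 4525 tested (8.0%) were at least 2-fold higher in the member nuclei than in all other kept nuclei in both libraries, and 87 (1.92%) were at least 2-fold lower. Such genes are called higher or lower below, a call of size and not a test, since each library is 1 sample. Of the genes called lower, 65 had no UMI in the members of library 2, and 212 of those called higher had only 1 or 2 UMIs there. The number of genes called lower is thus given as a count and not read as a difference, since counting error alone gives such calls. Computed without the ribosomal locus, the counts were 459 higher and 333 lower of 6490 genes, of which 325 and 87 were also called in the main comparison. The median log2 ratio of all tested genes was 0.19 in library 1 and 0.35 in library 2.

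All 4 genes of the pre-B receptor list, Igll1, Vpreb1, Vpreb2 and Vpreb3, were called higher over the other kept nuclei, against 8.0% of all tested genes. Their median log2 ratios were 2.37 and 3.58. Their summed level was 708 and 485 CPM, against 146 and 37.9 CPM, a ratio of 4.85 (3.8 to 6.11) and 12.8 (7.51 to 20.4). Vpreb1, which encodes the partner chain of lambda5, stood at 242 CPM (158 to 355) and 215 CPM (93 to 424). Without granule-marked members the ratios of the list were 5.35 (4.16 to 6.79) and 22.1 (12.5 to 36.3). The pre-B receptor genes thus stood above the remaining HSPC nuclei in each library.

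Against the Gfra2/Cplx2/Cecr2 nuclei the pre-B receptor genes differed less. There 215 of 4607 genes (4.67%) were called higher and 147 (3.19%) lower, with 1 of the 4 pre-B receptor genes among the former. This was Vpreb2, at 103 CPM (51.2 to 183, 11 UMIs) and 53.8 CPM (6.52 to 195, 2 UMIs) in the members against 35.6 and 15.1 CPM. Vpreb1 had ratios of 0.851 (0.55 to 1.26) and 1.12 (0.472 to 2.3). Summed over the list the ratio was 1.26 (0.981 to 1.59) and 1.36 (0.79 to 2.21), so no difference was detectable at this depth over all members. Without granule-marked nuclei the ratios were 1.36 (1.05 to 1.74) and 2.44 (1.36 to 4.12). For members with B neighbours in ATAC, described below, they were 1.61 (1.25 to 2.05) and 1.99 (1.16 to 3.24). Here and below B neighbours were required of the members alone, so members and Gfra2/Cplx2/Cecr2 nuclei were not filtered alike. At like depth the ratios of the list were 1.2 (0.843 to 1.67) and 1.73 (0.836 to 3.22), intervals that hold 1.

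Among recombination genes, Rag1, which encodes the catalytic subunit of the recombinase, stood at 121 CPM (64.5 to 207, 13 UMIs) and 53.8 CPM (6.52 to 195, 2 UMIs), and was called higher over the remaining nuclei, which held 11.1 and 3.28 CPM. Rag1 was also called higher over the Gfra2/Cplx2/Cecr2 nuclei, with ratios of 3.13 (1.58 to 5.75) and 2.86 (0.305 to 13.4). At like depth the ratios for Rag1 became 1.06 (0.313 to 2.87) and 2.02 (0.0455 to 15.1). Rag2, its partner, had 1 UMI in the members of each library and was not compared. Dntt, which adds bases at heavy chain joints, had ratios of 1.06 (0.687 to 1.56) and 1.23 (0.435 to 2.81) to the Gfra2/Cplx2/Cecr2 nuclei.

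In the V(D)J recombination list 2 of 7 tested genes of 10, Rag1 and Dntt, were called higher over the remaining nuclei (8.0% of all tested genes) and 1, Rag1, over the Gfra2/Cplx2/Cecr2 nuclei (4.67% of all tested genes). Its summed level was lower than in the Gfra2/Cplx2/Cecr2 nuclei, with ratios of 0.572 (0.496 to 0.655) and 0.762 (0.588 to 0.973), although the median log2 ratio of its genes was 0.08 and 0.03. The sum was carried by Hmgb1, a DNA bending protein found in most cells, at 848 and 888 CPM against 2003 and 1383 CPM. Hmgb2, a related protein that is also in the G2/M list below, stood at 559 and 592 CPM against 970.5 and 751 CPM.

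Of the genes of the B receptor complex and its signalling, 7 of 12 tested of 14 were called higher over the remaining nuclei, against 8.0% of all tested genes, and none lower. They included Cd79a and Cd79b, the signalling chains, the adaptor Blnk, the kinase Syk, Pik3ap1, which links the receptor to phosphoinositide kinase, and Bcl7a. Cd79a stood at 112 CPM (57.8 to 195) and 53.8 CPM (6.52 to 195) against 27.4 and 5.92 CPM. For Blnk the levels were 606 CPM (467 to 772) and 377 CPM (206 to 632) against 153 and 29.8 CPM. The summed ratio of the list was 2.4 (2.13 to 2.7) and 2.29 (1.64 to 3.11). None of the 12 was called against the Gfra2/Cplx2/Cecr2 nuclei. Syk had ratios of 1.85 (1.32 to 2.54) and 1.85 (0.712 to 4.09) to them, and 1.01 (0.548 to 1.75) and 1.47 (0.288 to 4.68) at like depth.

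Of the B lineage transcription factors, 7 of 21 tested of 24 were called higher over the remaining nuclei, against 8.0% of all tested genes, and none lower. They were Lef1, Foxo1, Pou2af1, Bach2, Erg, Klf2 and Aff3. Foxo1, which activates the Rag genes, stood at 522 CPM (394 to 678, 56 UMIs) and 80.8 CPM (16.7 to 236, 3 UMIs), against 72.4 and 14.1 CPM. Bach2, a repressor used by pre-B and mature B cells, stood at 1463 CPM (1243 to 1711) and 673 CPM (436 to 994) against 296 and 63.8 CPM. Over the Gfra2/Cplx2/Cecr2 nuclei 1 of 20 tested factors, Klf2, was called higher. This is near the 4.67% of all tested genes, so the count is not read as a difference. Klf2, a regulator of cell traffic and quiescence, stood at 112 CPM (57.8 to 195, 12 UMIs) and 108 CPM (29.3 to 276, 4 UMIs) against 33.1 and 32 CPM. At like depth its ratios were 1.86 (0.427 to 6.46, 4 UMIs) and 4.85 (0.857 to 18.8, 3 UMIs), and it was no longer called. Without granule-marked nuclei they were 3.06 (1.38 to 6.11) and 5.62 (1.01 to 21.3).

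Against the Gfra2/Cplx2/Cecr2 nuclei the single factors differed in whether their ratio held at like depth. Foxo1 had ratios of 1.92 (1.43 to 2.54) and 0.858 (0.171 to 2.66), and 1.94 (1.24 to 2.96) and 0.735 (0.0178 to 4.54) at like depth. Lef1 was at 1.7 (1.24 to 2.3) and 2.19 (0.904 to 4.61) at like depth. Bach2 had ratios of 1.39 (1.17 to 1.64) and 1.53 (0.969 to 2.31), and at like depth 0.752 (0.571 to 0.977) and 1.5 (0.80 to 2.59), with the direction turned in library 1. Foxo1 and Lef1 thus kept an interval above 1 in library 1 and Bach2 did not, and in library 2 the intervals of all 3 held 1 over all members and at like depth. Without granule-marked nuclei the interval of library 2 lay above 1 for Lef1, as given above, and for Bach2, with ratios of 1.4 (1.17 to 1.67) and 2.38 (1.45 to 3.7). Ikzf3, the Aiolos gene of the pre-B stage, had 11 UMIs in library 1, 103 CPM (51.2 to 183), and none in library 2, where 80.8 CPM would be 3 UMIs. Its ratio of 6.42 (2.86 to 13.5) in library 1 was 1.04 (0.109 to 5.0) at like depth.

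In the interleukin 7 receptor pathway, 1 of 6 tested genes of 12 was called higher over the remaining nuclei, Il7r, and 1 lower, Bcl2. Of all tested genes 8.0% were called higher and 1.92% lower. Il7r stood at 93.2 CPM (44.7 to 171) and 53.8 CPM (6.52 to 195) against 37.5 and 12 CPM, and at 0.72 (0.34 to 1.35) and 0.636 (0.0747 to 2.43) of the Gfra2/Cplx2/Cecr2 nuclei. Bcl2, which encodes a survival protein, stood at 74.6 CPM and at no UMI, where 3 UMIs would be 80.8 CPM, against 164 and 66.7 CPM, so that its lower level in library 2 was not distinguishable at this depth. Myc had no UMI in the members of either library, with 3 UMIs equal to 28 and 80.8 CPM, against 19 and 18.8 CPM in the Gfra2/Cplx2/Cecr2 nuclei. Cxcr4, the receptor that holds early B cells near stromal cells, likewise had no UMI and was called lower than in the Gfra2/Cplx2/Cecr2 nuclei, with 38.1 and 48.9 CPM. The interval of its ratio reached up to 0.931 and 2.18, and in library 1 up to 1.21 at like depth and 1.08 without granule-marked nuclei. The absence of Myc was not distinguishable from those levels at this depth, and that of Cxcr4 was distinguishable in library 1 over all members but not in library 2 or under these alternatives.

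Some genes of the transitional and mature B list were higher than in the remaining nuclei, while Cd74 and Igkc had few UMIs. In the list of transitional and mature B genes, 3 of 6 tested of 16 were called higher over the remaining nuclei, against 8.0% of all tested genes, namely Ighm, Tnfrsf13b and Cd55. Ighm, the mu heavy chain constant gene, stood at 549.8 CPM (419 to 709, 59 UMIs) and 80.8 CPM (16.7 to 236, 3 UMIs) against 105 and 26.9 CPM. To the Gfra2/Cplx2/Cecr2 nuclei Ighm had ratios of 1.8 (1.35 to 2.36) and 0.858 (0.171 to 2.66), and 1.21 (0.71 to 1.97) and 0.735 (0.0178 to 4.54) at like depth. Ighm gave 59 of the 104 UMIs of the list in library 1 and 3 of 13 in library 2. The whole list stood at 3.13 (2.55 to 3.81) and 2.41 (1.28 to 4.13) times the remaining nuclei. To the Gfra2/Cplx2/Cecr2 nuclei its ratios were 1.89 (1.53 to 2.32) and 1.35 (0.70 to 2.38), and 1.22 (0.849 to 1.73) and 1.49 (0.579 to 3.22) at like depth. Without granule-marked nuclei they were 1.93 (1.54 to 2.4) and 1.7 (0.758 to 3.35). Cd74, the chaperone of MHC class II, had 3 UMIs and 0 UMIs, against 790 CPM in the 40 Ms4a1/Bank1 nuclei of library 1. Igkc, the kappa constant gene, had 1 UMI and 0 UMIs, against 361 CPM in those nuclei.

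Nuclei with Ebf1 or Pax5 UMIs and at least 2 UMIs of Ms4a1 and Bank1 (Ms4a1/Bank1 nuclei) were too few to compare in library 2, which held 5 with 3804 UMIs in all. RNA levels against them are given for library 1. Kit, the receptor used in the sort, stood at 112 CPM (57.8 to 195) in the members, and the Ms4a1/Bank1 nuclei had no UMI, where 3 UMIs would be 67.7 CPM. The pre-B receptor list was 3.92 (1.89 to 9.41) times as high in the members, and the transitional and mature B list stood at 0.25 (0.194 to 0.32) of the Ms4a1/Bank1 nuclei.

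Genes of division were lower than in the Gfra2/Cplx2/Cecr2 nuclei. Of the G2/M list, 9 of 42 tested of 52 genes were called lower, against 3.19% of all tested genes, and none higher. Its median log2 ratios were -1.23 and -0.55 against 0.06 and 0.13 over all tested genes. Its summed level was 3737 and 3500 CPM against 8702 and 5805 CPM, a ratio of 0.429 (0.388 to 0.474) and 0.603 (0.502 to 0.719). At like depth the ratios were 0.569 (0.475 to 0.678) and 0.549 (0.403 to 0.732). Top2a, a topoisomerase of dividing cells, stood at 317 CPM (219 to 443) and 80.8 CPM (16.7 to 236) against 1059 and 683 CPM, a ratio of 0.299 (0.207 to 0.42) and 0.118 (0.0243 to 0.348). The remaining G2/M genes called lower were Cdk1, Tmpo, Kif11, Rangap1, Dlgap5, Cdca2, Anln and Cbx5. Of all 147 genes called lower 107 had no UMI in the members of library 2, and 47 were called again at like depth. Without granule-marked nuclei the ratios of the G2/M list were 0.423 (0.379 to 0.472) and 0.649 (0.508 to 0.819).

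Genes of DNA synthesis in the S phase list stood at 2376 and 1696 CPM against 4140 and 2493 CPM, a ratio of 0.574 (0.505 to 0.651) and 0.68 (0.52 to 0.876), and 0.644 (0.502 to 0.818) and 0.487 (0.287 to 0.777) at like depth. Without granule-marked nuclei they were 0.572 (0.497 to 0.655) and 0.599 (0.399 to 0.866). Of its 33 tested genes of 42, 4 were called lower, against 3.19% of all tested genes, namely Dtl, Uhrf1, Atad2 and Clspn, and none higher. Mki67, which encodes the Ki-67 protein of cycling cells, had ratios of 0.403 (0.275 to 0.572) and 0.838 (0.439 to 1.46). Against all other kept nuclei the S phase list had ratios of 0.814 (0.717 to 0.921) and 0.892 (0.685 to 1.14) and the G2/M list 0.831 (0.751 to 0.917) and 1.26 (1.05 to 1.49), on both sides of 1. Against the Gfra2/Cplx2/Cecr2 nuclei the intervals of both lists lay below 1 in both libraries, also at like depth, where the medians of library 2 still differed (916 against 1164 UMIs).

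**Figure D2:**
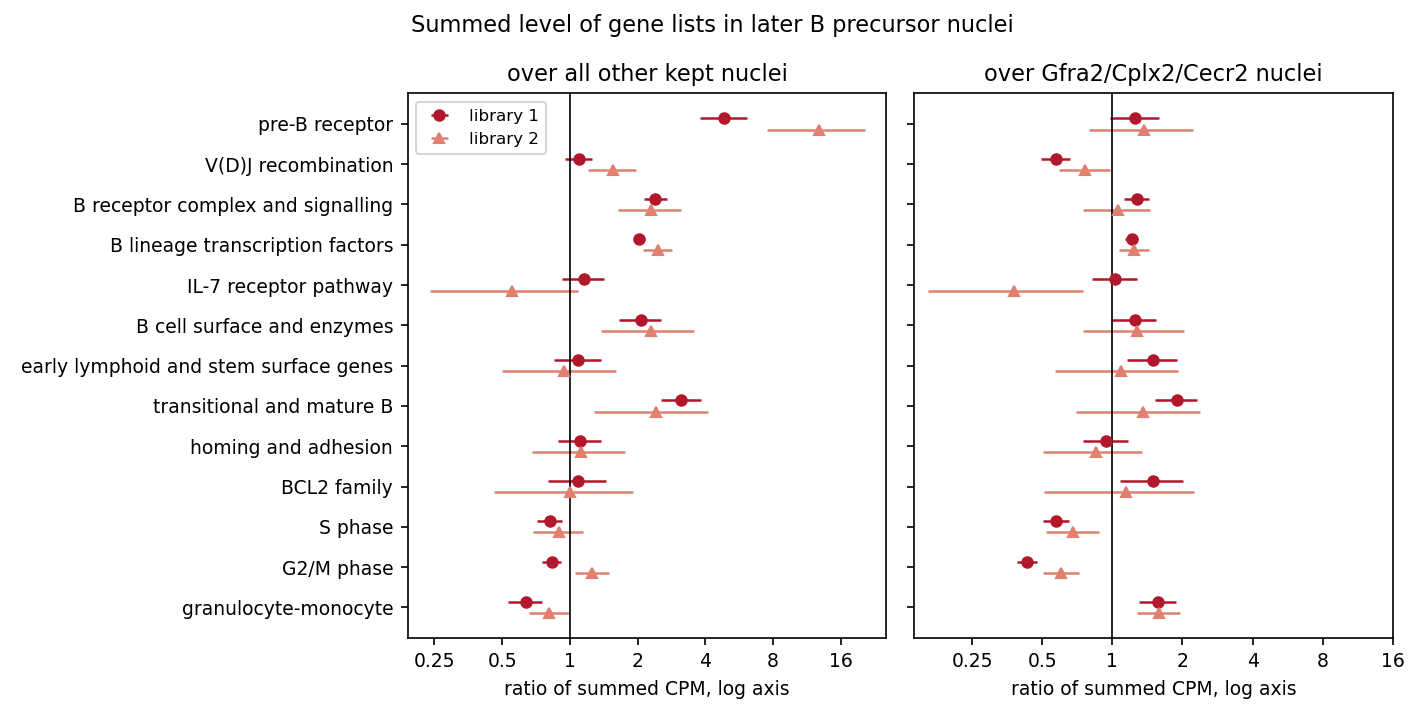
Ratio of summed CPM (log axis) of 13 gene lists in later B precursor nuclei over all other kept nuclei and over Gfra2/Cplx2/Cecr2 nuclei, with exact 95% intervals for each library. The pre-B receptor list stands at 4.85 and 12.8 over the other kept nuclei, and the S and G2/M phase lists lie below 1 over the Gfra2/Cplx2/Cecr2 nuclei in both libraries.

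Markers of other lineages ranged from none to levels above the pre-B receptor list. No UMI of the 10 NK and T cell genes was found in the members. Stem cell genes had 7 and 3 UMIs, megakaryocyte genes 2 and 0, basophil and mast cell genes 6 and 0 and plasma cell genes 6 and 2. Erythroid genes had 11 and 2 UMIs in 4 and 1 nuclei, with Car1, a carbonic anhydrase, called higher in both comparisons from 7 and 1 UMIs. The erythroid list stood at 2.07 (1.03 to 3.73) and 2.66 (0.32 to 9.71) times the remaining nuclei and 5.76 (2.6 to 11.9) and 5.72 (0.545 to 34.96) times the Gfra2/Cplx2/Cecr2 nuclei. The granulocyte-monocyte list, with 0 of 9 tested genes called, stood at 1267 and 2585 CPM (136 and 96 UMIs), 0.636 (0.534 to 0.753) and 0.811 (0.657 to 0.991) of the remaining nuclei. It was 1.57 (1.31 to 1.87) and 1.59 (1.27 to 1.96) times that of the Gfra2/Cplx2/Cecr2 nuclei, and 0.949 (0.673 to 1.31) and 1.07 (0.69 to 1.59) at like depth. Of its 12 genes 10 and 8 had UMIs in the members, and Elane stood at 112 and 162 CPM against 84.1 and 141 CPM in the Gfra2/Cplx2/Cecr2 nuclei. The part of these lineages in the other differences was not tested beyond leaving out the granule-marked nuclei.

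The genes with the largest ratios over the remaining nuclei, ranked by the weaker library, rested on few UMIs in library 2. Fam129c, a B cell gene, led with 112 CPM (57.8 to 195, 12 UMIs) and 26.9 CPM (0.682 to 150.01, 1 UMI) against 5.3 and 0.64 CPM. Gpam, an enzyme of glycerolipid synthesis, stood at 214 CPM (136 to 322, 23 UMIs) and 80.8 CPM (16.7 to 236, 3 UMIs) against 21.4 and 8.72 CPM. Cdc25b, a phosphatase of the cell cycle, was at 103 CPM (51.2 to 183, 11 UMIs) and 53.8 CPM (6.52 to 195, 2 UMIs) against 9.62 and 3.92 CPM. The other genes of the highest 12 were 2010300C02Rik, Gpr155, Pcdh9, F8, Cpm, Gm34225, Rag1, Vpreb2 and Bst1. The lowest was Acot7, an acyl-CoA thioesterase, with no UMI in either library, where 3 UMIs would be 28 and 80.8 CPM, against 45.4 and 35.4 CPM.

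Over the Gfra2/Cplx2/Cecr2 nuclei the highest 12 included Ltb and Apobec1. Ltb, the lymphotoxin beta gene, stood at 112 CPM (57.8 to 195, 12 UMIs) and 26.9 CPM (0.682 to 150.01, 1 UMI) against 8.59 and 3.76 CPM, and at like depth its ratio was 4.66 (1.39 to 15.6) in library 1, while library 2 had 0 UMIs against 1, too few for a ratio. Apobec1, a cytidine deaminase, stood at 93.2 CPM (44.7 to 171, 10 UMIs) and 53.8 CPM (6.52 to 195, 2 UMIs) against 14.7 and 7.53 CPM, with 2.15 (0.67 to 6.06) and 8.08 (0.731 to 56.4) at like depth. Of the 215 genes called higher, 16 had 20 or more UMIs in the members, and 58 were called again at like depth, where 274 were called in all.

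Beyond the limits on ATAC counts for a kept nucleus, accessible chromatin took no part in the choice of the members. Each nucleus was described by its 20 nearest neighbours within its library in components 2 to 30 of latent semantic indexing of the peaks. Of the neighbours of members, 86.3% and 75.9% had Ebf1 or Pax5 RNA, against 26.9% and 10.3% of kept nuclei. Around the Gfra2/Cplx2/Cecr2 nuclei this share was higher, at 91.3% and 84.6%. Such B neighbours made up 10 or more of the 20 for 85 of 98 members and for 24 of 28. Members themselves were 18.8% and 7.5% of the neighbours of members, against 5.81% and 3.38% for the Gfra2/Cplx2/Cecr2 nuclei and 1.66% and 0.363% of kept nuclei. Gfra2/Cplx2/Cecr2 nuclei made up 40.4% and 39.1% of the members' neighbours. Around the Ms4a1/Bank1 nuclei, 40 and 5 in number, members made up 12.1% and 6.0% of the neighbours. In accessible chromatin the members thus lay among B lineage nuclei, and they were more frequent around each other than around the Gfra2/Cplx2/Cecr2 nuclei, a description without a test. In library 1 this held also around the Ms4a1/Bank1 nuclei, which were too few in library 2 to compare. Members were shallower in ATAC than Gfra2/Cplx2/Cecr2 nuclei, with medians of 11739 and 8226.5 counts against 18394 and 13639.5. The median of the Ms4a1/Bank1 nuclei in library 1 was 8412.5. The part of ATAC depth in these neighbour shares was not tested.

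Placement differed among the members. Of the 11 members with 1 UMI of Ebf1 and Pax5 in library 1, 4 had 10 or more B neighbours, against 81 of 87 with more UMIs. The counts in library 2 were 3 of 4 and 21 of 24. Of the granule-marked members, 4 of 8 in each library had 10 or more B neighbours, against 81 of 90 and 20 of 20 of the rest.

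**Figure D3:**
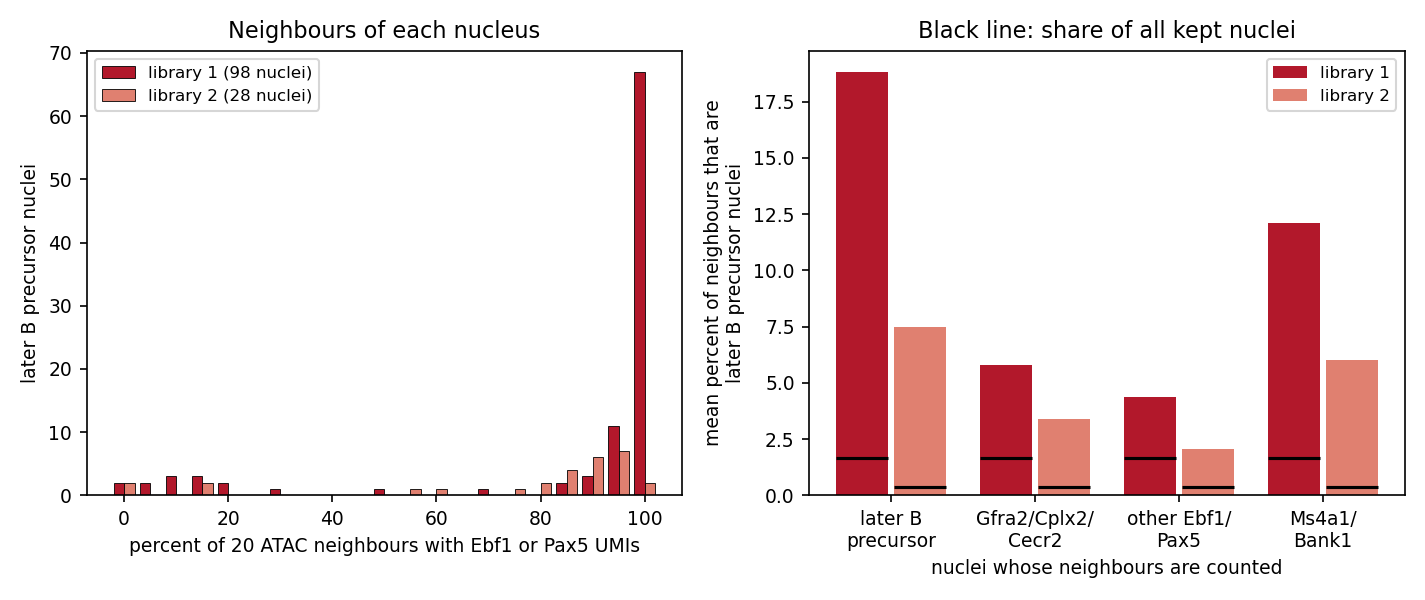
Left, number of later B precursor nuclei by the percent of their 20 ATAC neighbours that had Ebf1 or Pax5 UMIs, for each library. Right, mean percent of neighbours that were later B precursor nuclei, for 4 kinds of nuclei, with a black line at the share of all kept nuclei; bars reach 18.8% and 7.5% for the later B precursor nuclei themselves.

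Chromatin at the genes of the rule was more open in the members for the 3 genes whose RNA chose them. ATAC counts were summed over peaks with their centre in the gene or shortly before its start and scaled as for RNA to the counts in all peaks (ATAC CPM). Gm32569 stood at 105 (81.9 to 133) and 77.8 (40.8 to 134) ATAC CPM against 51.8 and 56.5 in the Gfra2/Cplx2/Cecr2 nuclei, a ratio of 2.03 (1.55 to 2.62) and 1.38 (0.707 to 2.45). For Ankrd33b the values were 157 (129 to 191) and 196 (134 to 277) ATAC CPM against 111 and 123, a ratio of 1.42 (1.15 to 1.74) and 1.59 (1.07 to 2.3). Cacna1e had ratios of 1.26 (1.02 to 1.54) and 1.42 (0.933 to 2.08). All 3 loci had intervals above 1 in library 1, and Ankrd33b in library 2 as well.

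The loci of the genes that the members had to hold less of differed less uniformly. Cecr2 had ratios of 1.02 (0.774 to 1.33) and 0.68 (0.307 to 1.32) and Gfra2 of 1.27 (0.919 to 1.72) and 0.682 (0.233 to 1.57). Cplx2 stood at 0.679 (0.496 to 0.908) and 0.913 (0.515 to 1.51). The peak at the start of Cecr2 held 67.3 and 56.0 ATAC CPM in the members against 64.0 and 63.3 in the Gfra2/Cplx2/Cecr2 nuclei. A difference in chromatin was thus not detectable at Cecr2 and Gfra2 at this depth.

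Over the remaining nuclei, 29 of 285 loci of listed genes with counts (10.2%) had intervals above 1 in both libraries and 1 (0.351%) had intervals below 1. The 285 loci include the 10 genes of the rule, whose RNA chose the members and which gave 6 of the 29 loci above 1. Among the loci above 1 were also 5 of 14 loci of the B receptor list, 6 of 24 of the B lineage factors and 1 of 4 of the pre-B receptor list, as well as 1 of 10 of V(D)J recombination, 1 of 12 of the interleukin 7 receptor pathway, 2 of 4 of the plasma cell list and 1 of 10 of the NK and T cell list. The transitional and mature B list had 0 of 15, the S phase list 0 of 42 and the granulocyte-monocyte list 0 of 12. Cd79a held 52.2 (36.3 to 72.8) and 31.1 (10.1 to 72.6) ATAC CPM against 12.3 and 7.47, a ratio of 4.24 (2.92 to 5.97) and 4.16 (1.35 to 9.78). Ebf1, whose RNA was part of the rule, had ratios of 2.81 (2.4 to 3.28) and 2.77 (1.86 to 3.97). At Elane, a granule gene, the ratio was 0.429 (0.117 to 1.1) in library 1, and no count was found in library 2. To the Gfra2/Cplx2/Cecr2 nuclei Rag1 had ratios of 1.04 (0.588 to 1.71) and 0.93 (0.247 to 2.49), intervals that hold 1.

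Against the Gfra2/Cplx2/Cecr2 nuclei 4 of the 285 loci (1.4%) had intervals above 1 in both libraries and 3 (1.05%) below 1, so that few loci stood to either side. Those above were Ankrd33b, a gene of the rule, and Ikzf3, Cd79b and Dok3. Those below were Tyms, Tipin and Runx2, and all were picked out for this after their values were seen. Ikzf3 held 123 (98 to 153) and 128 (78.4 to 196) ATAC CPM, a ratio of 1.68 (1.32 to 2.12) and 1.91 (1.14 to 3.02). Dok3, which encodes an adaptor that dampens B receptor signals, held 37.1 (23.9 to 54.9) and 56 (25.6 to 106) ATAC CPM against 18.1 and 18, a ratio of 2.04 (1.28 to 3.14) and 3.11 (1.34 to 6.4). Cd79b held 30.3 (18.5 to 46.7) and 46.7 (19.5 to 93.9) ATAC CPM against 16.1 and 16.5, a ratio of 1.88 (1.12 to 3.02) and 2.82 (1.11 to 6.17). Their RNA was sparse in library 2, with no UMI of Ikzf3 and 1 UMI of Cd79b.

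A peak near Lef1 had its highest value in the members, also picked out after its values were seen. It lies 8116 bp before Lef1 (chr3:131101900-131102810, GRCm38). The members held 37.1 (23.9 to 54.9) and 24.9 (6.78 to 63.7, 8 counts) ATAC CPM. The Gfra2/Cplx2/Cecr2 nuclei held 14.4 and 8.92 and the remaining nuclei 3.58 and 1.91. In library 2 the members' interval held the value of the Gfra2/Cplx2/Cecr2 nuclei.

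Over all peaks with a mean of at least 5 ATAC CPM and 40 counts, 3255 of 44825 (7.26%) were at least 2-fold higher in the members than in the remaining nuclei in both libraries and 1775 (3.96%) were lower. Against the Gfra2/Cplx2/Cecr2 nuclei 127 of 32066 (0.396%) were higher and 501 (1.56%) lower. The members held 1321916 and 321497 ATAC counts in all, and a peak without a count in those of library 2 had an interval up to 22.9 ATAC CPM. A single peak can thus be called lower for want of counts, and the numbers of lower peaks are given as counts. The central 300 bases of 4 of the leading higher peaks are given with each CAGCTG, the E-box core that E2A and related factors bind, in capitals, because this motif was more frequent in the higher peaks. Of 5 leading peaks read over the Gfra2/Cplx2/Cecr2 nuclei 2 hold it, and both are shown, while of 3 read over the remaining nuclei all hold it and the 2 within genes are shown. All sequences are the plus strand of GRCm38, 5′ to 3′. The windows lie in introns of Tbc1d16 (chr11:119216045-119216344) and Gm36287 (chr12:25165814-25166113), which led over the Gfra2/Cplx2/Cecr2 nuclei, and of Ptprj (chr2:90531270-90531569) and Rai1 (chr11:60161393-60161692), which led over the remaining nuclei.
Tbc1d16 intron peak: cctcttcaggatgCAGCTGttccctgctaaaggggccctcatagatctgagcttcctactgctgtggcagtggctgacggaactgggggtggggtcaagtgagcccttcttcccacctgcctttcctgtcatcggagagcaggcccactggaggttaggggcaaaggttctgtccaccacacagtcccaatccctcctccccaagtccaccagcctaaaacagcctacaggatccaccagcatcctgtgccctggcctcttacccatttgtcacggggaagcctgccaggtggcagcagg
Gm36287 intron peak: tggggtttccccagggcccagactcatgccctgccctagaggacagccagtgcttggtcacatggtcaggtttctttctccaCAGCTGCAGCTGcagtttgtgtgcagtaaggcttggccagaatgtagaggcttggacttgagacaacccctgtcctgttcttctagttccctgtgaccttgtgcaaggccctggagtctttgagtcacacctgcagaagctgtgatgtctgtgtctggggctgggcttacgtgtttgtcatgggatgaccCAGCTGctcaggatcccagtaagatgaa
Ptprj intron peak: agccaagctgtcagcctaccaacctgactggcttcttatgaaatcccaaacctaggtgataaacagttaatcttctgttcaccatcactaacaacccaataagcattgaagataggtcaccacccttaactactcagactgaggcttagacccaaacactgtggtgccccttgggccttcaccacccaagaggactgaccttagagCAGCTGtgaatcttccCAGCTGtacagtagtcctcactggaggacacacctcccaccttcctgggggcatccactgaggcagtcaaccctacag
Rai1 intron peak: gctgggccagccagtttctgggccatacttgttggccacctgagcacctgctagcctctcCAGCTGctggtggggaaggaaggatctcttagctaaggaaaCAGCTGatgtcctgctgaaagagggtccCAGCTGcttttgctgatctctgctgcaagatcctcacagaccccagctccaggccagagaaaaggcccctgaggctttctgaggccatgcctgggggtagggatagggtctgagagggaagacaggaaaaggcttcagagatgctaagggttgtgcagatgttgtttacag

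The Tbc1d16 peak held 21.2 and 37.3 ATAC CPM in the members, against 4.66 and 5.2 in the Gfra2/Cplx2/Cecr2 nuclei and 3.43 and 3.37 in the remaining nuclei, and its window has the motif at base 14. The Gm36287 peak held 32.5 and 52.9 against 9.03 and 9.47 and 7.0 and 6.68, with the motif at bases 83, 89 and 273. At the Ptprj peak the members held 32.5 and 21.8, the Gfra2/Cplx2/Cecr2 nuclei 11.8 and 10.4 and the remaining nuclei 2.62 and 1.29, and the motif stands at bases 207 and 223. The Rai1 peak was graded in the same way, with 34 and 40.4, 11.7 and 9.1 and 2.88 and 1.6, and has the motif at bases 61, 102 and 130. In library 2 the members' interval at the Ptprj peak, 5.26 to 59.2, held the value of the Gfra2/Cplx2/Cecr2 nuclei. As these peaks were chosen by their ratios, the values are descriptions.

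In all peaks, CAGCTG stood in 50.4% (41.4 to 59.4) of the 127 windows higher than in the Gfra2/Cplx2/Cecr2 nuclei, against 23.9% of all tested and 20.4% of those lower. Over the remaining nuclei it stood in 45.4% (43.7 to 47.1) of higher windows, 23.1% of all tested and 355 of the 1775 lower ones. In peaks more than 1000 bp from a gene start the shares were 51.9% against 27.7%, and 45.1% against 25.4%. Higher peaks had less GC than tested ones, 53.7% against 57.5% over the Gfra2/Cplx2/Cecr2 nuclei and 51.4% against 55.5% over the remaining nuclei, and the part of base composition in these shares was not tested.

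The EBF motif, TCCC and GGGA with 2 free bases between, differed by comparator. It stood in 6.97% (6.12 to 7.9) of peaks higher than in the remaining nuclei, against 1.6% of all tested, but in 3.15% (0.865 to 7.87) of peaks higher than in the Gfra2/Cplx2/Cecr2 nuclei against 2.13%. The FOXO motif GTAAACA stood in 6.91% of peaks higher than in the remaining nuclei against 3.27%. In peaks lower than in the remaining nuclei the CEBP motif TTGCNNAA stood in 26% (23.9 to 28.1) against 12.1%, and the PU.1 and SPIB motif GAGGAAGT in 14.7% (13.1 to 16.4) against 8.06%. The other motifs searched, 12 in all and each on both strands, were kappa B, IRF, an ETS-IRF composite, RUNX, LEF and TCF, IKZF and GATA. RUNX was searched as TGTGGT, and the motif of LEF and TCF as CTTTGA. IKZF was searched as TGGGAA, and the motif of GATA factors as AGATAA. The IRF motif was GAAA repeated after 2 free bases. In the composite, GGAA took the place of the first repeat. The PU.1 and SPIB motif can share letters with the composite, and the EBF motif with IKZF. A match is a run of letters and says nothing of binding.

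**Figure D4:**
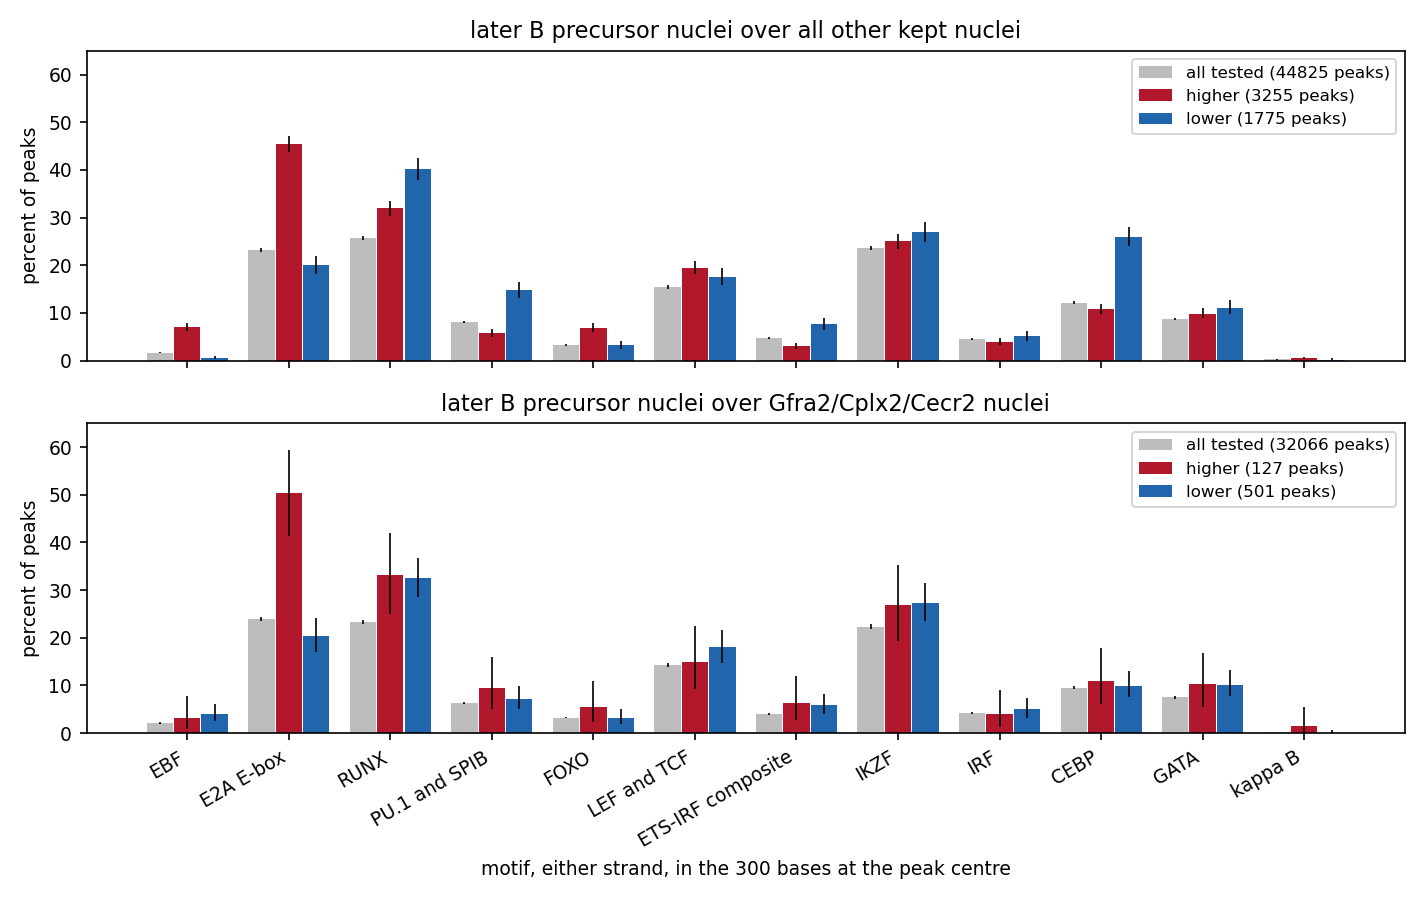
Percent of peaks with each of 12 motifs on either strand in the central 300 bases, for all tested peaks and for peaks at least 2-fold higher or lower in later B precursor nuclei in both libraries, with exact 95% binomial intervals. The E-box stands in 45.4% and 50.4% of higher peaks against 23.1% and 23.9% of all tested peaks.

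The kappa locus, which is rearranged after the heavy chain, has 6 peaks from its J segments to the region after Igkc on chromosome 6. By their place relative to Igkc 3 of them match the intronic enhancer, the 3′ enhancer and a distal enhancer known for this locus. The central 300 bases of each are given because they carry the control elements of light chain opening, with 1 motif in capitals, the kappa B site in the first (chr6:70725708-70726007), the ETS-IRF composite in the second (chr6:70735598-70735897) and CAGCTG in the last (chr6:70743980-70744279). The first pair of windows lies in the span of Gm30211 outside exons, and the last between genes.
Igk intronic enhancer peak: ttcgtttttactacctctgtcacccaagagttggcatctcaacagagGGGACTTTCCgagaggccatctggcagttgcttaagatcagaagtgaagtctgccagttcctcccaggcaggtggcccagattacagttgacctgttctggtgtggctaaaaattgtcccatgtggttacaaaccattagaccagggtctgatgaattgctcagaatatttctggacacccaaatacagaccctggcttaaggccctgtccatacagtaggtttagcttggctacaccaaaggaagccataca
Igk 3′ enhancer peak: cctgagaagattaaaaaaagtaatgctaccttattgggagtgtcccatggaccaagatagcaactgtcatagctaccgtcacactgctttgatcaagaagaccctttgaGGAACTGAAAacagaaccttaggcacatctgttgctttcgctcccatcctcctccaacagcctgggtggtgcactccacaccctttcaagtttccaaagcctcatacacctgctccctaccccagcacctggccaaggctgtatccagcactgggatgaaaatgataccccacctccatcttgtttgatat
Igk distal enhancer peak: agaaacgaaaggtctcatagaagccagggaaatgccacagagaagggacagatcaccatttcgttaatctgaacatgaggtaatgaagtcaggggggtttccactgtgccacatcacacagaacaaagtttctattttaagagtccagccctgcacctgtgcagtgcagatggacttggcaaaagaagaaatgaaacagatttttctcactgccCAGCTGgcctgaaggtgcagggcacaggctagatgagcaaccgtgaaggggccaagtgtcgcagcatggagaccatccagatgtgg

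The intronic enhancer peak held 15.1 (7.26 to 27.8) and 0 (0 to 22.9) ATAC CPM in the members, with no count in library 2, against 5.91 and 4.27 in the Gfra2/Cplx2/Cecr2 nuclei and 3.36 and 2.25 in the remaining nuclei. At the 3′ enhancer peak the members held 18.2 (9.38 to 31.7) and 18.7 (3.85 to 54.5) against 11.4 and 10.03 and 4.82 and 3.04. At the distal peak they held 15.9 (7.78 to 28.8) and 12.4 (1.51 to 44.9) against 8.01 and 8.92 and 3.2 and 1.96. In library 1 the members had the highest value at all 3 peaks, with intervals above those of the remaining nuclei but overlapping those of the Gfra2/Cplx2/Cecr2 nuclei (4.41 to 7.75, 9.3 to 13.9 and 6.25 to 10.1). The intervals of library 2 were too wide to order the members.

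Summed over the 6 peaks the members held 56 (39.4 to 77.2) and 31.1 (10.1 to 72.6) ATAC CPM, the Gfra2/Cplx2/Cecr2 nuclei 32 and 29 and the remaining nuclei 20.2 and 14.2. The ratio to the Gfra2/Cplx2/Cecr2 nuclei was 1.75 (1.21 to 2.47) and 1.07 (0.339 to 2.61). Without granule-marked nuclei it was 1.48 (0.972 to 2.16) and 1.51 (0.396 to 4.08), so that the interval of library 1 then held 1, and for members with B neighbours it was 1.94 (1.29 to 2.81) and 1.19 (0.316 to 3.17). Kappa variable segments held 93.8 (71.9 to 120.3) and 62.2 (29.8 to 114) against 86.6 and 73.7 in the Gfra2/Cplx2/Cecr2 nuclei. Igk RNA in the members was 1 UMI of the constant gene and 1 of a variable gene, both in library 1.

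The heavy chain variable region was less open in the members than in the Gfra2/Cplx2/Cecr2 nuclei. Over 266 peaks (chr12:113572927-116010093) the members held 692 (630.2 to 759) and 622 (506 to 757) ATAC CPM, against 969.8 and 947 in the Gfra2/Cplx2/Cecr2 nuclei and 585 and 519.98 in the remaining nuclei. The ratio to the Gfra2/Cplx2/Cecr2 nuclei was 0.714 (0.648 to 0.784) and 0.657 (0.532 to 0.802). Without granule-marked nuclei it was 0.725 (0.656 to 0.799) and 0.643 (0.488 to 0.832), and for members with B neighbours 0.811 (0.731 to 0.897) and 0.669 (0.523 to 0.844). The members thus lay below the Gfra2/Cplx2/Cecr2 nuclei in both libraries under each of these choices. No value at like depth is given for this region. The median of ATAC counts per nucleus was 11739 and 8226.5 in the members against 18394 and 13639.5 in the Gfra2/Cplx2/Cecr2 nuclei.

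The region was divided into 3 parts of equal length after the total was known. In the part nearest to the D segments, with 43 peaks, the members held 144 (117 to 177) and 87.1 (47.6 to 146) ATAC CPM against 189.7 and 192. In the middle part, with 96 peaks, the values were 262 (224 to 304) and 277 (202 to 371) against 381 and 366. In the farthest part, with 127 peaks, they were 286 (247 to 329.7) and 258 (186 to 349.6) against 399 and 389. The value of each part was lower in the members of both libraries, although the intervals overlapped for the middle part of library 2 (343 to 389 in the Gfra2/Cplx2/Cecr2 nuclei). Peaks of D, J and constant segments also had lower values, 109 (85.2 to 137) and 103 (59.2 to 165) against 135 (127 to 142) and 126 (113 to 140.3), with intervals that overlapped. In RNA the heavy chain constant genes had 62 and 4 UMIs in the members and the variable genes 2 and 0.

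**Figure D5:**
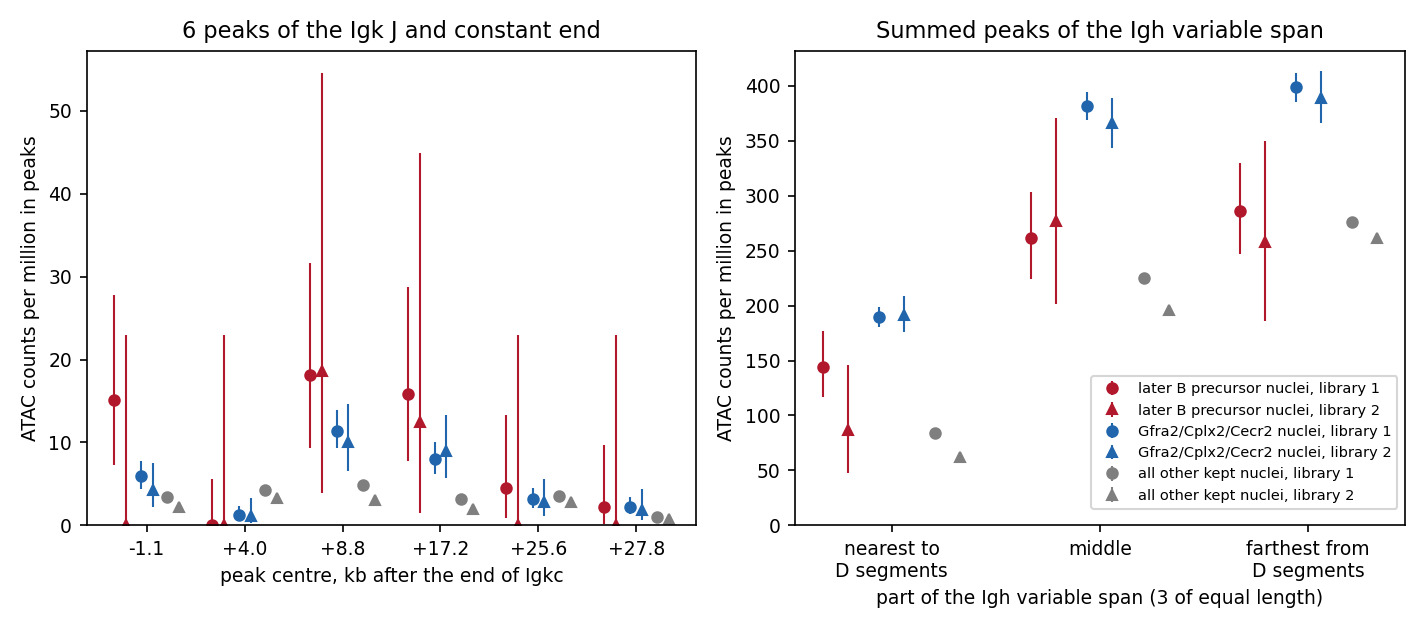
Left, ATAC counts (CPM) at 6 peaks of the kappa locus by distance of the peak centre from the end of Igkc, and right, summed ATAC CPM in 3 parts of the heavy chain variable region, with 95% intervals for each library. The later B precursor nuclei of library 1 hold 15.1, 18.2 and 15.9 at the enhancer peaks, and they lie below the Gfra2/Cplx2/Cecr2 nuclei in each part of the heavy chain region.

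The members differed among themselves by the gene that chose them. Members with Cacna1e alone of the 3 genes (47, of which 33 in library 1) and members with Gm32569 or Ankrd33b (79) were pooled over the libraries and held 381 CPM (233 to 588) and 805 CPM (632 to 1011) of the pre-B receptor list. Lef1 stood at 381 CPM (233 to 588) and 870.3 CPM (690.1 to 1083), and Foxo1 at 171 CPM (78.3 to 325) and 544 CPM (404 to 717). Bach2 went the other way, at 1656 CPM (1327 to 2043) and 1033 CPM (836 to 1263). Library 2 gave 14 nuclei to each subset, so its share differs between them, and these values are descriptions.

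Between the libraries, the members of library 2 were lower for 142 of 182 genes with at least 50 UMIs in both together, with a median log2 ratio of library 2 over library 1 of -0.50, and -0.36 for the same genes in the other kept nuclei. The lowest were Ighm, at 549.8 and 80.8 CPM, Foxo1, Aff1, Pde4b and Foxn3. The highest were Prtn3, a granule gene at 233 and 700.02 CPM, Hspa5, Mpo, Cdk8 and Camk1d. The other kept nuclei differed in the same direction for Ighm, at 105 and 26.9 CPM, and for Prtn3, at 318 and 535 CPM. These CPM include the ribosomal locus, which took 39.3% and 53.2% of the members' UMIs and 43.1% and 53.2% of the others'. A larger share there lowers the CPM of every other gene, and its part in the median ratios was not tested.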

How the data were processed

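The processed data held single-nucleus RNA and ATAC of HSPCs, 1 Ctrl and 1 Lig sample at day 14, in 1 matrix. The authors made it with Cell Ranger ARC 2.0.0 on GRCm38 (mm10), and the deposited values are raw counts, UMIs for genes and ATAC counts for peaks. Seurat 4.0.3 and Signac 1.3.0 are named in the submitters' processing notes for later steps. Groups came from the labels, but no label ties barcodes to samples, so barcode suffixes were kept apart as libraries in no group. The matrix holds 0 mitochondrial rows, so no limit on mitochondrial RNA was applied.

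Members and gene lists were chosen with earlier results of these data known. UMIs were summed over nuclei and scaled to CPM, with a pseudocount of 1 CPM in log2 ratios. Named genes outside the lists were the 12 highest and 8 lowest per comparison by the weaker library, without the 10 genes of the rule, and the 5 highest and 5 lowest between libraries; exceptions are marked as chosen after their values were seen. A call meant at least 2-fold the same way in both libraries. With 1 library each, no test and no p-value was computed. Shares have Clopper-Pearson intervals, CPM exact Poisson intervals, and ratios exact conditional binomial intervals. As 82.5% of nonzero peak entries were even, ATAC intervals used pairs of counts. The calling step was tested on simulated data. Results for 1 gene are not reported here. Python 3.11.15, numpy 2.4.6, scipy 1.17.1, pandas 2.3.3, scikit-learn 1.9.0 and matplotlib 3.10.9 were used. Genes matched GENCODE vM21 for 99.6% of IDs. Alternatives covered the filters, the pseudocount, the ribosomal locus, a stricter rule and thinning. Leaving out granule-marked members, requiring B neighbours and like depth were added after seeing the data. Against the Gfra2/Cplx2/Cecr2 nuclei, B neighbours were required of the members alone.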

Additional observations from a re-analysis of the deposited data

How the results depend on the processing

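No paired analysis was possible because no comparison had a test and the barcode suffixes carry no replicate. Leaving out a replicate was not possible with 1 library each. Of 114 alternative values 74 stayed within the limit set for them, 39 moved and 1 reversed. List and locus values added after seeing the data numbered 68, and 52 of these stayed. Member shares became 0.792% in library 1 with at least 500 genes, 0.847% and 0.104% with at least 2 UMIs of the 3 genes, and 0.678% and 0.137% after thinning to 1000 UMIs, where the same nuclei gave 0.761% and 0.183% unthinned. Over the remaining nuclei, genes called lower were 333 without the ribosomal locus, 622 at a mean of 5 CPM, 378 with at least 2 UMIs of each sum of the rule, 161 without granule-marked members and 147 for members with B neighbours. At a mean of 100 CPM 69 genes were higher and 4 lower, and with a pseudocount of 10 CPM 236 and 55. Over the Gfra2/Cplx2/Cecr2 nuclei 358 were higher and 356 lower without the ribosomal locus, 115 and 89 with a pseudocount of 10 CPM, 423 lower with at least 2 UMIs, and 339 lower at like depth. Over the Ms4a1/Bank1 nuclei 619 genes were higher, and 1048 without the ribosomal locus, counts that are not read because library 2 held 5 such nuclei. Peaks over the remaining nuclei were 521 higher and 13 lower at a mean of 20 ATAC CPM, and 3366 lower with at least 2 UMIs.

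List ratios over the Gfra2/Cplx2/Cecr2 nuclei at like depth were 0.569 for G2/M in library 1, 0.487 for S phase in library 2, 1.22 for transitional and mature B in library 1, and for granulocyte-monocyte genes 0.949 in library 1, a reversal, and 1.07 in library 2. Without granule-marked nuclei the latter was 1.92 in library 1, and the pre-B receptor ratio was 2.44 in library 2, and 1.61 in library 1 for members with B neighbours. Over the remaining nuclei the pre-B receptor ratio was 6.23 with B neighbours in library 1 and 22.1 without granule-marked members in library 2, and that of B lineage factors was 2.16, 2.27 and 1.90 in library 1 (without granule-marked members, with B neighbours, without the ribosomal locus) and 3.37 and 2.92 in library 2. For the heavy chain variable region the ratio to the Gfra2/Cplx2/Cecr2 nuclei was 0.811 with B neighbours in library 1. The cause of these shifts was not tested. The 28 members of library 2 limit single genes there, and doublets and free RNA cannot be told apart from members with few UMIs.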

Other observations

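The dendritic cell list stood at 1230 and 377 CPM in the later B precursor nuclei, 1.8 (1.5 to 2.13) and 1.11 (0.604 to 1.86) times the other kept nuclei, with 0 of 4 tested genes called in either direction. Tcf4, which B precursors also express, carried 89 and 9 of the list's 132 and 14 UMIs. Monocyte genes had 26 and 19 UMIs and stood at 1.72 (1.1 to 2.59) and 3.12 (1.8 to 5.18) times the level in Gfra2/Cplx2/Cecr2 nuclei, with 0 of 4 tested genes called.

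Early lymphoid and stem surface genes stood at 1.49 (1.15 to 1.9) and 1.09 (0.568 to 1.91) times the level in Gfra2/Cplx2/Cecr2 nuclei, with Kit at 112 CPM (57.8 to 195) and 135 CPM (43.7 to 314) and Flt3, a receptor of lymphoid progenitors, at 74.6 CPM (32.2 to 147) and 53.8 CPM (6.52 to 195) in the later B precursor nuclei. BCL2 family genes stood at 1.49 (1.08 to 2.01) and 1.14 (0.508 to 2.24), and Mcl1, a survival gene, at 177 CPM (107 to 277) and 135 CPM (43.7 to 314) against 89.6 and 50.8 CPM. The ratios of Mcl1 were 1.98 (1.16 to 3.2) and 2.65 (0.797 to 6.98), and 1.71 (0.772 to 3.51) and 6.22 (1.73 to 18.6) at like depth, with an interval above 1 in library 1 over all members and in library 2 at like depth. Without granule-marked nuclei they were 2.35 (1.37 to 3.82) and 6.07 (1.75 to 17.1). Homing and adhesion genes stood at 0.943 (0.751 to 1.17) and 0.847 (0.503 to 1.34).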
